A study of Mus musculus with 21 samples.

Results

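Gene expression was compared between mouse embryonic stem cells labelled LIF and cells labelled 2i+LIF, both at the stage that the labels call LP. Libraries were taken into it by their labels, with no measured value in that choice. It used 6 of the 21 mRNA sequencing libraries, 3 for LIF LP and 3 for 2i+LIF LP. All cells were of the E14Tg2a line, a mouse embryonic stem cell line of strain 129, here with a destabilised green fluorescent protein (GFPd2) knocked into 1 allele of Rex1 (Zfp42), a gene used to report the naive state. The protocol is given in the same words for every library: NDiff227 medium with CHIR99021 at 3 uM and PD0325901 at 1 uM for 1 week, after which CH, PD and LIF were given and taken away in turn at each passage. The medium of a library is therefore known from its label only, and whether LP or HP was cultured for longer is not stated. The labels do not say that replicates were separate cultures, so p-values measure the spread between these samples, which may be technical. The line is a single one, so nothing here speaks for other lines.

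LIF, leukaemia inhibitory factor, acts through its receptor (Lifr with Il6st) and Jak kinases on the transcription factor STAT3, which holds embryonic stem cells in self-renewal. The name 2i stands for a pair of kinase inhibitors. CHIR99021 blocks GSK3, which frees beta-catenin to activate Wnt target genes through TCF and LEF factors, and PD0325901 blocks MEK and so the ERK pathway that pushes cells out of the naive state. Cells in 2i with LIF are usually uniform and close to the naive epiblast, while cells in LIF without inhibitors are usually mixed.

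The LIF LP libraries held 1501799, 1298051 and 1916962 gene counts in replicates 1, 2 and 3, and the 2i+LIF LP libraries held 1763531, 2165518 and 1607181. The library labelled 2i+LIF LP replicate 1 stood apart from its replicates. Its mean correlation with them was 0.837, against 0.895 and 0.887 for replicates 2 and 3 and 0.931 to 0.938 in LIF LP. Gm42418, a gene that overlaps ribosomal RNA sequence, took 31.7% of its gene counts and 5.65 to 10.6% in the other 5 libraries. Mitochondrial genes took 0.210% of its counts and 2.62 to 8.01% in the others, and 11312 genes were detected in it against 12254 to 13307. The difference in the Gm42418 share between the groups did not exceed the spread of the samples (7.95% ± 2.48 in LIF LP and 15.5% ± 14.0 in 2i+LIF LP, SD, n = 3 each; exact two-sided permutation test, p = 0.6, the smallest possible being 0.1). Without that library the sign of the difference turned, to 0.541 percentage points more in LIF LP. Results that rest on it are given with and without it below. Values are CPM, the counts of a gene scaled by library size and TMM factors to a common depth. A count of 0 in a library allows up to 3 counts, which is 1.29 to 2.10 CPM on this scale and covers counting error only.

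Cell identity matched the label of an embryonic stem cell in all 6 libraries. The summed level of 8 markers (Pou5f1, Sox2, Nanog, Zfp42, Esrrb, Dppa5a, Utf1 and Tdgf1) was 1862, 1945 and 1948 CPM in LIF LP and 2306, 1534 and 1560 CPM in 2i+LIF LP, and none of the 8 was at 0 in any of the 6 libraries. Fibroblast, primitive endoderm, mesoderm and 2-cell-like marker lists each summed to at most 36.9 CPM in any of these libraries. Trophoblast markers summed to 37.2 to 95.4 CPM, of which Tfap2c, also a gene of embryonic stem cells, gave 31.2 to 60.0 CPM. In the comparison below none of these lists held a called gene, with 2 genes tested for fibroblast, 2 for mesoderm, 3 for trophoblast and 0 for primitive endoderm and 2-cell-like cells. Col3a1, Dcn, Sox17, Ttr, Afp, Mixl1, Tbx6 and Zscan4f had no count in any of the 6.

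Targets of the inhibited pathways did not all follow the labels. Dusp6, the phosphatase induced by ERK that switches ERK off, stood at 20.4, 15.3 and 47.1 CPM in LIF LP and at 0.701, 34.4 and 26.3 CPM in 2i+LIF LP replicates 1, 2 and 3. Replicates 2 and 3, labelled as grown with the MEK inhibitor, therefore lay within the range of LIF LP, and replicate 1 lay far below it. Egr1, an immediate early gene of the same pathway, gave 57.8, 21.2 and 34.1 CPM in LIF LP against 0, 15.9 and 35.8 CPM. Spry4, a feedback inhibitor of receptor tyrosine kinase signalling, overlapped as well, at 6.61, 10.6 and 9.62 CPM against 2.80, 17.7 and 6.71 CPM. The same genes were low in other groups labelled 2i+LIF, Dusp6 at 2.85 ± 0.753 CPM in PO and 3.37 ± 1.36 CPM in HP (SD, n = 3 each). They were also low in LIF HP, labelled as free of the inhibitor, where Dusp6 gave 0.411 ± 0.711 CPM and Egr1 0.377 ± 0.330 CPM. Whether any label was exchanged was not tested, and directions below are between libraries as labelled.

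**Figure D1:**
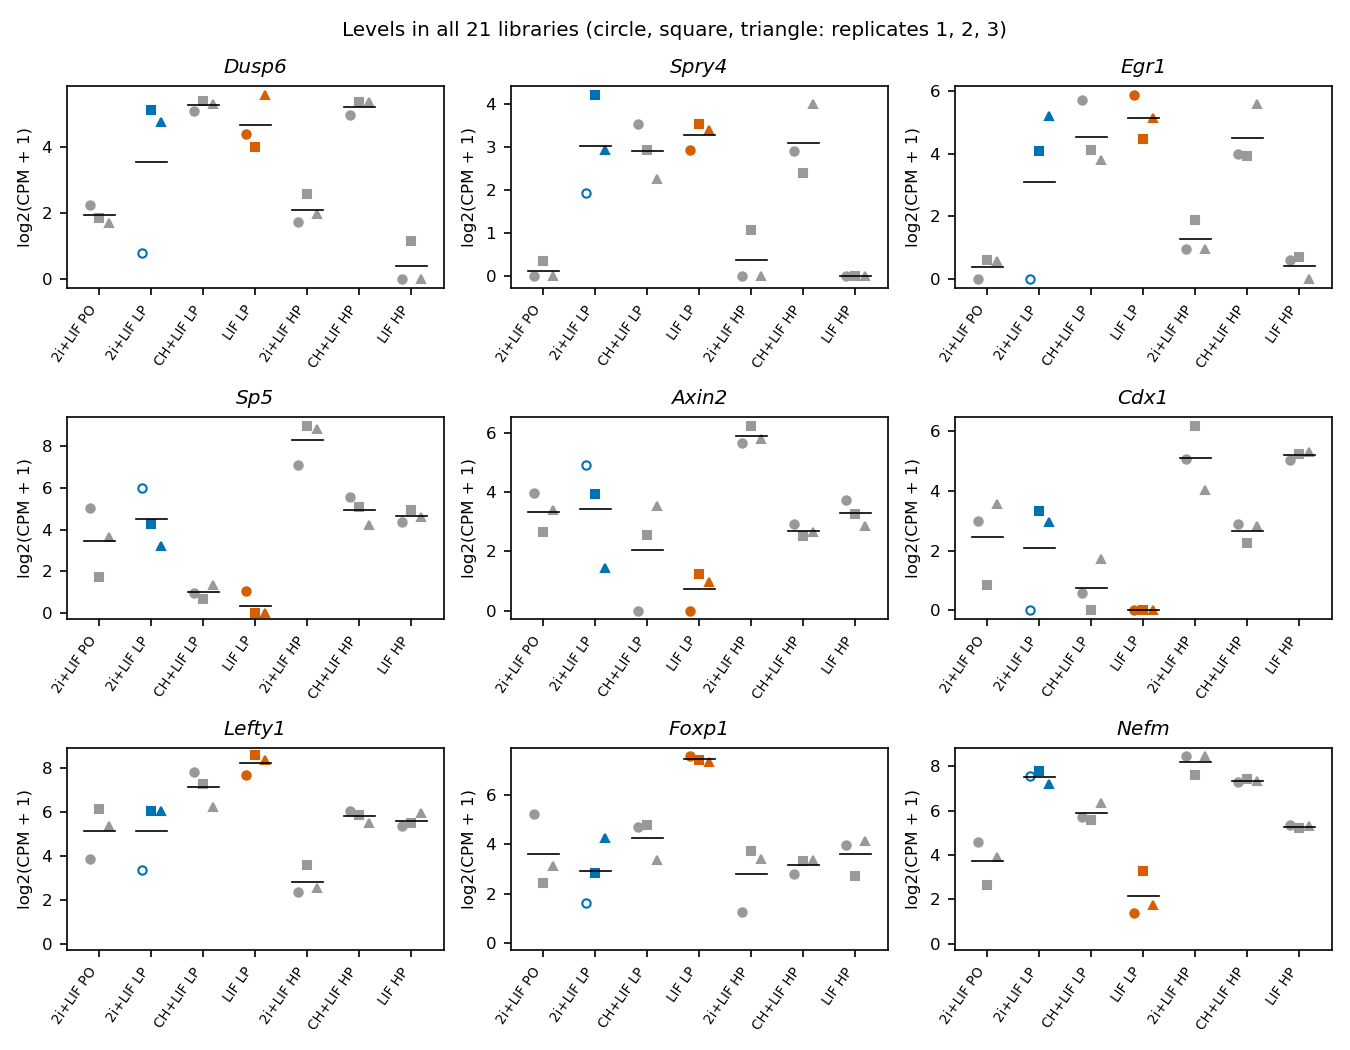
Level of 9 genes as log2(CPM + 1) in each of the 21 libraries, grouped by label on the horizontal axis, with circles, squares and triangles for replicates 1, 2 and 3 and a line at the mean of the plotted values (n = 3). LIF LP is orange and 2i+LIF LP blue, with its replicate 1 as an open circle, which lies apart from the other two for Dusp6, Egr1 and Lefty1. Among the 7 groups drawn, Foxp1 is highest in LIF LP, and Nefm and Sp5 are lowest there, with Sp5 also low in CH+LIF LP.

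Of 10643 genes with enough counts to test, 52 were called, that is 0.489% of those tested, where a call is an adjusted p under 0.05 in edgeR's quasi-likelihood test over all 21 libraries. Of these, 12 (0.113%) were higher in LIF LP and 40 (0.376%) were lower. All 52 had CPM that did not overlap between the groups, a property shared by 1656 of the genes tested (15.6%, with 891 or 8.37% higher and 765 or 7.19% lower in LIF LP). Without 2i+LIF LP replicate 1, 2818 of 11058 genes did not overlap (25.5%), 1382 or 12.5% higher and 1436 or 13% lower. In edgeR without that library, 23 of 11058 genes passed (0.208%), 5 higher (0.0452%) and 18 lower (0.163%), and 20 of these were among the 52. A call without that library refers below to this fit, which keeps the other groups. It keeps 2i+LIF PO replicate 1, which also stood apart, with 39.1% of its counts from mitochondrial genes. Without both libraries 59 genes were called, 14 higher and 45 lower, and 37 of them were among the 52. In a fit of these groups alone without 2i+LIF LP replicate 1, 12 of the 12 higher and 27 of the 40 lower genes were called. A call lost without that library is therefore not by itself a sign that the gene rests on it. The fold changes of all 52 kept their sign without 2i+LIF LP replicate 1, where the lack of overlap left little room for a change. That library was the lowest of the 3 2i+LIF LP libraries for 11 of the 12 genes called higher in LIF LP. It was the highest for 27 of the 40 called lower. The share of that pattern in these calls was not tested. No gene passed on the X chromosome (368 tested) or on chromosome 9 (606 tested), and 8 passed on chromosome 6 (479 tested). The median log2 fold change of each autosome and of X lay between -0.08 and 0.15.

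**Figure D2:**
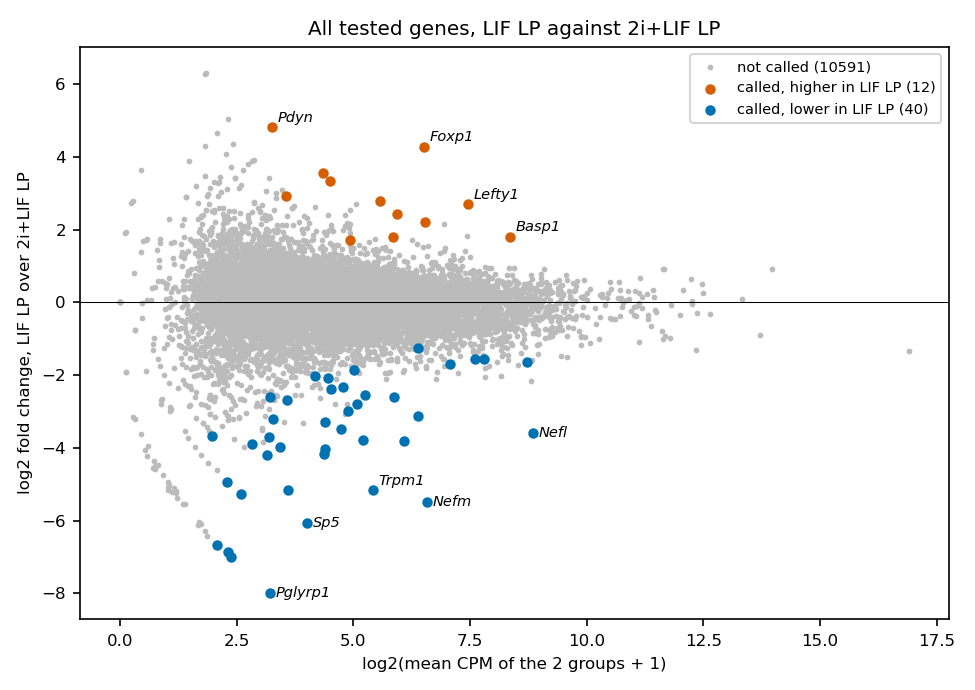
Log2 fold change of LIF LP over 2i+LIF LP (vertical axis) against the mean level of the groups as log2(CPM + 1) for each of the 10643 genes tested, 1 point per gene. The 12 called rises (orange) reach to 4.81 and the 40 called falls (blue) reach to -7.99 (Pglyrp1), the deepest at low levels and Nefm well to their right.

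Of the genes of transcription described in this paragraph, Foxp1 had the largest log2 fold change. Foxp1 (ENSMUSG00000030067, chromosome 6, 98925338 to 99522721, GRCm38) encodes a forkhead repressor of which a splice form found in embryonic stem cells is known to favour pluripotency genes. It gave 189, 167 and 161 CPM in LIF LP and 2.10, 6.03 and 17.9 CPM in 2i+LIF LP. The LIF LP libraries were close together and the lowest lay about an order of magnitude above the highest 2i+LIF LP library. The log2 fold change was 4.29 ± 0.71 (SE; edgeR adjusted p = 0.00200) and 3.88 ± 0.74 without 2i+LIF LP replicate 1 (edgeR adjusted p = 0.0107). These gene counts do not tell splice forms apart. Foxp4, the other family member tested, overlapped between the groups, at 23.1, 32.5 and 36.6 CPM in LIF LP against 50.5, 81.8 and 21.2 CPM, and Foxp2 had no count. Polr3gl, a subunit of RNA polymerase III, rose as steadily. It gave 67.7, 108 and 68.3 CPM against 4.91, 12.1 and 17.9 CPM, a log2 fold change of 2.78 ± 0.45 (edgeR adjusted p = 0.00188), and 2.45 ± 0.46 without the library that stood apart (edgeR adjusted p = 0.0107). Ncoa7, named as a nuclear receptor coactivator, gave 95.8, 79.0 and 89.0 CPM against 14.7, 34.0 and 25.7 CPM (log2 fold change 1.81, edgeR adjusted p = 0.0158). Its adjusted p without that library was 0.0898 in edgeR. Of the called genes, 6 of 12 higher and 15 of 40 lower overlap another annotated gene. The strand setting of the counting is not given in the sources used here, so reads of the overlapping genes may be included. Among the genes described here these are Foxp1, Polr3gl, Ncoa7, Slc27a2, Col18a1 and Gng3 of the rises. Of the falls they are Slc24a5, Lhfpl2, Nefm, Nefl, Grhl2, Axin2, Gm31659, Bcl2l14, Aldh1l1, Bcat1, Gpx2, Hmga2 and 1700097N02Rik.

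Lefty1, a secreted inhibitor of Nodal that is itself switched on by Nodal signalling, rose with all libraries. It gave 203, 387 and 324 CPM in LIF LP and 9.12, 65.9 and 64.3 CPM in 2i+LIF LP. Its log2 fold change was 2.70 ± 0.56 (edgeR adjusted p = 0.0177). Without 2i+LIF LP replicate 1 the size was 2.24 ± 0.51 and the adjusted p 0.0613 in edgeR, so the call was lost while the remaining libraries stayed apart. With these groups alone and without that library Lefty1 passed (edgeR adjusted p = 3.71e-05). Ramp3, a partner protein of the calcitonin receptor family, gave 22.0, 51.1 and 34.1 CPM against 3.51, 1.72 and 3.91 CPM (log2 fold change 3.55 ± 0.67, edgeR adjusted p = 0.0114). It passed without the library that stood apart, at 3.68 ± 0.77 (edgeR adjusted p = 0.0296). Pdyn, the precursor of dynorphin opioid peptides, was measured from 85 counts in LIF LP and 3 in 2i+LIF LP, a ratio of pooled levels of 29.0 with a 95% counting interval from 9.61 to 143.7. Without replicate 1 the ratio was 21.6 (7.13 to 107) and Pdyn did not pass (edgeR adjusted p = 0.0333 with it and 0.133 without it). Prkcb, a protein kinase C, had no count in replicate 1 of 2i+LIF LP and 6.46 and 4.47 CPM in replicates 2 and 3, against 43.5, 44.5 and 30.8 CPM in LIF LP (edgeR adjusted p = 0.0195, and 0.0646 without replicate 1). Gng3, a G protein gamma subunit, gave 41.3, 50.5 and 43.8 CPM against 11.9, 13.4 and 15.7 CPM, with both groups tight and well apart (log2 fold change 1.72 ± 0.38, edgeR adjusted p = 0.0323, and 0.110 without replicate 1).

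Col18a1, the collagen that is cut to endostatin, gave 76.0, 128 and 101 CPM in LIF LP and 7.01, 19.4 and 29.1 CPM in 2i+LIF LP. It passed with that library (log2 fold change 2.44 ± 0.42, edgeR adjusted p = 0.00372) and without it (2.09 ± 0.41, edgeR adjusted p = 0.0159). Basp1, a membrane-attached protein abundant in neurons, was the most highly counted of the 12, at 474, 487 and 569 CPM against 68.7, 198 and 170 CPM. Myo1f, a myosin of immune cells, gave 132, 185 and 136 CPM against 25.9, 28.4 and 42.5 CPM. Slc27a2, a fatty acid transporter and acyl-CoA synthetase, had 0, 5.17 and 1.68 CPM in 2i+LIF LP and 22.6, 15.3 and 20.2 CPM in LIF LP. Neither Basp1, Myo1f nor Slc27a2 passed without 2i+LIF LP replicate 1, with edgeR adjusted p values of 0.127, 0.0675 and 0.130. Of the 12 rises, 4 passed without it (Foxp1, Ramp3, Polr3gl and Col18a1), against 12 in the fit of these groups alone without it.

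**Figure D3:**
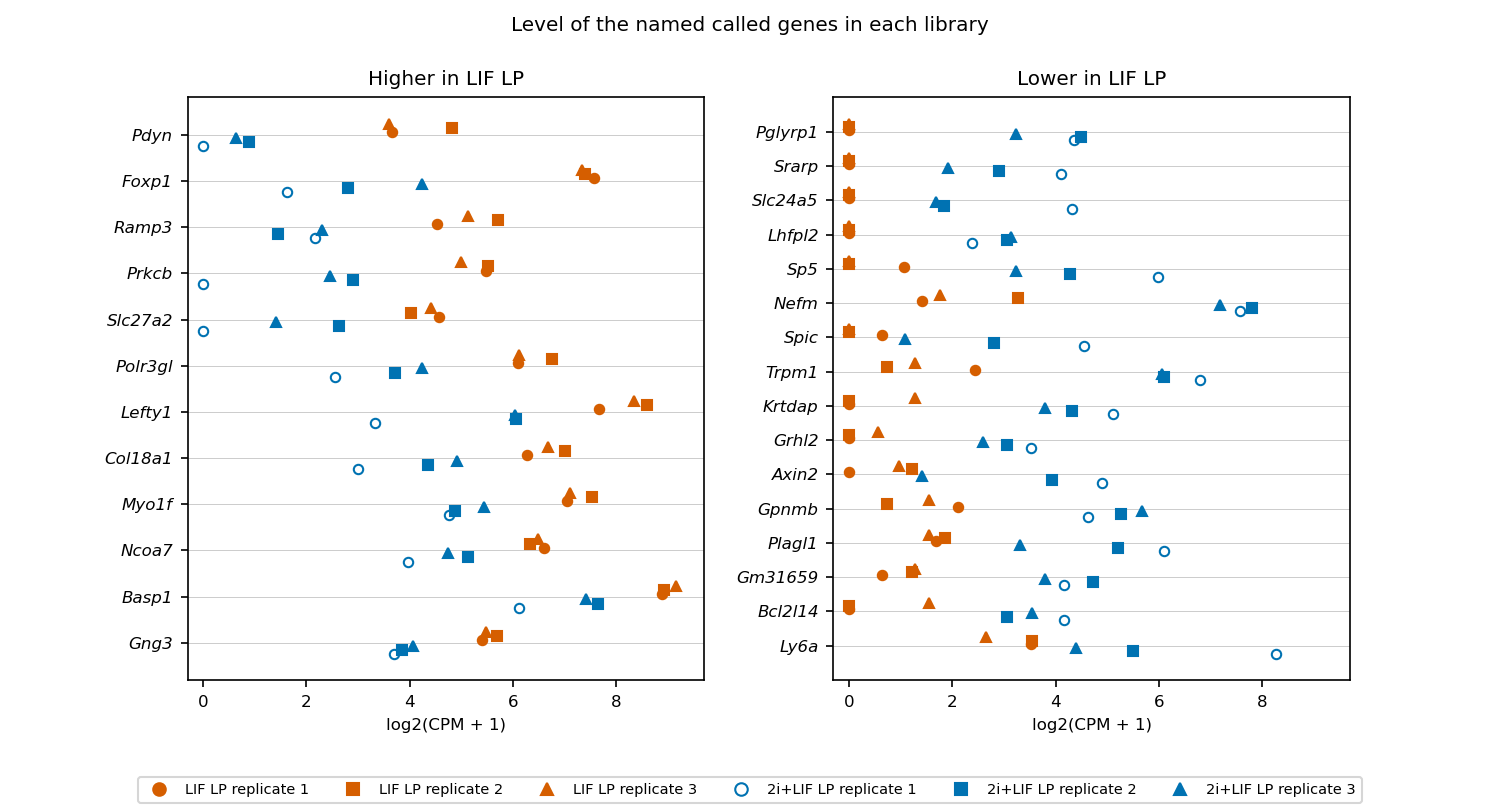
Level of the 12 genes called higher and of the 16 named genes called lower in LIF LP, as log2(CPM + 1) on the horizontal axis, 1 marker per library (orange LIF LP, blue 2i+LIF LP, open circle for its replicate 1). In no row do the colours overlap, and the open circle lies at or beyond the outer edge of the blue markers in many rows, as for Lefty1 at 9.12 CPM and Ly6a at 309 CPM.

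Wnt target and feedback genes were the list with the lowest median. Of 20 genes listed, 14 were tested, none was called higher and 2 were called lower, Sp5 and Axin2, where 0.376% of all genes tested were called lower. Without 2i+LIF LP replicate 1 the 2 called lower of 14 were Sp5 and Cdx1, beside 0.163% of all genes. Their median log2 fold change was -1.83 (-1.72 without 2i+LIF LP replicate 1), beside 0.02 over all genes tested (0.00 without it), and 12 of the 14 were negative in both fits. The list was chosen with results of these data known, so its direction is no independent evidence. Sp5, a zinc finger factor that is a direct target of Wnt signalling, gave 1.10, 0 and 0 CPM in LIF LP and 62.4, 18.5 and 8.39 CPM in 2i+LIF LP. LIF LP held 2 counts of it in all, and 2i+LIF LP was higher by a ratio of 71.7 with a 95% counting interval from 19.5 to 598. Without the library that stood apart the ratio was 38.1 (10.1 to 322) and the log2 fold change went from -6.07 to -4.97. The edgeR adjusted p was 0.00494, and 0.0319 without that library, which held the highest of the values. Axin2, a scaffold of the complex that degrades beta-catenin and a feedback target of it, gave 0, 1.33 and 0.962 CPM against 28.8, 14.2 and 1.68 CPM. Its lowest 2i+LIF LP library lay barely above LIF LP, and the edgeR adjusted p was 0.0480 with that library and 0.209 without it.

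Cdx1, a homeobox target of Wnt, was at 0 in all LIF LP libraries and at 0, 9.04 and 6.71 CPM in 2i+LIF LP. The groups thus overlapped at 0, and Cdx1 did not pass over all libraries (edgeR adjusted p = 0.0900). Without 2i+LIF LP replicate 1 it passed (edgeR adjusted p = 0.0296), and its pooled level was then at least 14.5-fold lower in LIF LP, taking 3 counts over the group as the limit of a count of 0. Lef1, a Wnt effector that is itself a target, had no count in LIF LP and 2.80, 3.44 and 1.68 CPM in 2i+LIF LP (edgeR adjusted p = 0.245). Ccnd2 went the other way, at 51.2, 37.8 and 47.6 CPM in LIF LP and 9.12, 5.17 and 11.7 CPM in 2i+LIF LP. Its log2 fold change of 2.40 ± 0.61 did not pass in edgeR (adjusted p = 0.0799), and it passed in limma-voom with sample weights (adjusted p = 0.00675) and in DESeq2 (adjusted p = 0.00660). T, Cdx2 and Dkk1 were at or near 0 in all 6 libraries.

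Promoters of the called genes were searched for the letters CTTTGAT, the core that TCF and LEF factors bind, on both strands, because Sp5 and Axin2 are known targets of those factors. RefSeq promoters (250 bases before to 50 after each start, GRCm38.p6) were found for 31 of the 40 lower genes and 11 of the 12 higher ones. The core was present in 4 of 40 promoters of the lower genes (10%), in 0 of 16 promoters of the higher genes and in 3.73% of all 32851 promoters. Among genes called without 2i+LIF LP replicate 1 it was in 2 of 15 promoters of lower genes (13.3%) and in 0 of 8 of higher genes. The Axin2 window did not hold these letters. A match is a description of the sequence and not of binding. The 3 windows shown are those of lower genes with a match upstream of the annotated gene, with the core in capitals, which reads ATCAAAG where it lies on the other strand. The Sp5 window is chr2:70474779-70474865 (plus strand, core at -104), the Srarp window chr4:141436137-141436223 (minus strand, core at -78) and the Krtdap window chr7:30787711-30787797 (plus strand, core at -154), positions being counted from the RefSeq start.
Sp5: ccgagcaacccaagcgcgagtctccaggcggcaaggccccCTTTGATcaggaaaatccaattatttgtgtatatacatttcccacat
Srarp: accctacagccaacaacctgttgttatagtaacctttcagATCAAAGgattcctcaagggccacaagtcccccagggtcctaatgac
Krtdap: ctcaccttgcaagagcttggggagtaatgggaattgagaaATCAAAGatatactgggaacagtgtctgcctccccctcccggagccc
The remaining match was in Bcat1. The E-box CACGTG was in 15% of the promoters of lower genes, 6.25% of those of higher genes and 7.15% of all, the ETS core CCGGAAG in 7.5%, 6.25% and 8.86%, the AP-1 site TGACTCA in 7.5%, 0% and 5.2%, the STAT site TTCNNNGAA in 5%, 6.25% and 8.3%, and the forkhead core GTAAACA in 2.5%, 0% and 3.65%. In the 15 promoters of lower genes called without 2i+LIF LP replicate 1 these shares were 26.7%, 13.3%, 13.3%, 0% and 6.67% in the same order, each resting on at most 4 promoters. Fkbp6 had 2 overlapping windows that held the same E-boxes and the same ETS site, and both windows were counted. The ETS share of 13.3% thus rests on a single site. The median number of CG dinucleotides was 6 in promoters of lower genes, 14 in those of higher genes and 7 in all.

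Nefm, the medium neurofilament chain (ENSMUSG00000022054, chromosome 14, 68082590 to 68124846), gave 1.65, 8.63 and 2.41 CPM in LIF LP and 189, 222 and 144.3 CPM in 2i+LIF LP. Its log2 fold change was -5.49 ± 0.54 (edgeR adjusted p = 7.88e-07), and -5.47 ± 0.54 without the library that stood apart (edgeR adjusted p = 7.81e-07). Nefl, the light chain, was singled out after its values were seen. It gave 84.3, 69.7 and 58.7 CPM against 1028, 825 and 711 CPM (log2 fold change -3.59 ± 0.46, edgeR adjusted p = 9.43e-05). The annotated span of Nefm contains that of Nefl, so reads may be shared or lost between them. In CH+LIF LP, labelled with the GSK3 inhibitor and LIF, Nefm lay between the groups at 59.3 ± 17.8 CPM (SD, n = 3). In 2i+LIF PO, labelled with both inhibitors, it was lower than that, at 14.2 ± 8.99 CPM. At HP it gave 37.8 ± 2.00 CPM in LIF, 161 ± 7.09 CPM in CH+LIF and 300 ± 91.5 CPM in 2i+LIF.

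Of 8 markers of neural ectoderm 4 were tested and none was called, with 3 positive and 1 negative log2 fold change and a median of 1.15 (1.55 without 2i+LIF LP replicate 1). Without that library all 4 were positive and higher in LIF LP without overlap, beside 12.5% of all genes. With it 2 of the 4 were, beside 8.37%. Their summed level was 85.9, 77.7 and 74.1 CPM in LIF LP and 35.1, 27.1 and 31.9 CPM in 2i+LIF LP. Sox1, a transcription factor of early neural plate, made up most of the sum in LIF LP, at 53.4, 53.1 and 39.4 CPM against 0.701, 13.8 and 17.3 CPM (log2 fold change 2.16 ± 0.69, edgeR adjusted p = 0.174). Nes, an intermediate filament of neural progenitors, gave 11.6, 9.96 and 16.4 CPM in LIF LP against 22.4, 8.18 and 8.95 CPM, and overlapped through 2i+LIF LP replicate 1 alone. Neurog2 and Olig2 had no count in any of the 6 libraries. The part of such cells in the rises of Basp1 and Gng3, which neurons also express, was not tested. In bulk RNA, more cells of a type and more RNA per cell cannot be told apart.

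The other largest falls were of genes at low levels that LIF LP libraries nearly lacked. Pglyrp1, a secreted protein that binds bacterial peptidoglycan, had no count in LIF LP and 19.6, 21.5 and 8.39 CPM in 2i+LIF LP. Its pooled level was at least 30.2-fold lower in LIF LP, and at least 28.5-fold lower without 2i+LIF LP replicate 1 (edgeR adjusted p = 0.000900 and 0.00160). Lhfpl2, a membrane protein, was also without a count in LIF LP and stood at 4.21, 7.32 and 7.83 CPM in 2i+LIF LP, at least 12.0-fold lower and 13.6-fold without that library. Srarp and Slc24a5, a potassium-dependent exchanger of sodium and calcium active in pigment cells, were without counts in LIF LP too, at least 14.0-fold and 12.0-fold lower. Their 2i+LIF LP values were led by replicate 1, at 16.1, 6.46 and 2.80 CPM for Srarp and 18.9, 2.58 and 2.24 CPM for Slc24a5. Without it their bounds were 8.76-fold and 4.38-fold, and neither passed (edgeR adjusted p = 0.0768 and 0.162).

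Trpm1 and Gpnmb passed with and without 2i+LIF LP replicate 1. Trpm1, a cation channel of melanocytes and retinal bipolar cells, gave 4.41, 0.664 and 1.44 CPM in LIF LP and 110, 68.0 and 66.0 CPM in 2i+LIF LP. Its log2 fold change was -5.16 ± 0.50 (edgeR adjusted p = 7.88e-07), and -4.87 ± 0.49 without 2i+LIF LP replicate 1 (edgeR adjusted p = 7.81e-07). Gpnmb, a glycoprotein of melanosomes and lysosomes, gave 3.31, 0.664 and 1.92 CPM against 23.8, 37.5 and 50.3 CPM, with replicate 1 the lowest of its group (log2 fold change -4.17 ± 0.65, edgeR adjusted p = 0.00116, and 0.000697 without it). Rragd, a GTPase that tells the kinase mTORC1 of amino acids at the lysosome, was named after its values were seen. It gave 7.16, 9.30 and 2.89 CPM against 58.2, 44.3 and 49.8 CPM (log2 fold change -2.99 ± 0.45, edgeR adjusted p = 0.000900, and 0.00176 without replicate 1).

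Krtdap, a secreted peptide of differentiating keratinocytes, was measured from 3 counts in LIF LP and 115 in 2i+LIF LP, a ratio of 37.4 (95% counting interval 12.5 to 184, edgeR adjusted p = 0.000605, and 0.00160 without replicate 1). Grhl2, an epithelial transcription factor that acts as naive cells become formative, was measured from 1 count against 41, in which 2i+LIF LP replicates 1, 2 and 3 gave 10.5, 7.32 and 5.03 CPM. Grhl2 was the 1 gene called of 10 tested formative and primed epiblast markers, whose median log2 fold change was 0.32 (all genes: 0.376% called lower, median 0.02). Without replicate 1 it did not pass (edgeR adjusted p = 0.0227 with it and 0.0826 without it), and the list held 0 calls of 11 tested with a median of 0.20. Bcl2l14, a relative of Bcl2, gave 0, 0 and 1.92 CPM against 16.8, 7.32 and 10.6 CPM, and the noncoding Gm31659 gave 0.551, 1.33 and 1.44 CPM against 16.8, 25.4 and 12.9 CPM. Gm31659 passed without replicate 1 (edgeR adjusted p = 0.0107) and Bcl2l14 did not (edgeR adjusted p = 0.102). Spic, an ETS family factor of iron-recycling macrophages, was measured from 1 count against 48, with 22.4, 6.03 and 1.12 CPM in 2i+LIF LP, so replicate 1 led, and it did not pass without it (edgeR adjusted p = 0.176). Ly6a, a surface protein known as Sca-1 and a member of a multigene family whose copies may share reads, gave 10.5, 10.6 and 5.29 CPM against 309, 44.3 and 20.1 CPM. Its log2 fold change of -3.82 ± 0.71 (edgeR adjusted p = 0.00822) rested in large part on replicate 1 and was -1.88 ± 0.52 without it (edgeR adjusted p = 0.152). Cdh1, the epithelial cadherin, gave 358, 353 and 285 CPM against 581, 638 and 559 CPM. It did not overlap between the groups and did not pass (log2 fold change -0.84 ± 0.33, edgeR adjusted p = 0.293). No adhesion gene was called among 13 tested, and their median was -0.56.

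Another 5 falls were named after their values were seen. Hmga2, a chromatin protein of fetal growth that let-7 microRNAs repress, gave 81.5, 65.1 and 42.8 CPM in LIF LP and 186, 230 and 190 CPM in 2i+LIF LP (log2 fold change -1.68 ± 0.38, edgeR adjusted p = 0.0359), and the call was lost without replicate 1 (-1.72 ± 0.40, edgeR adjusted p = 0.0675). Fkbp6, a germ cell protein of meiosis and piRNA defence, gave 24.8, 7.97 and 17.3 CPM against 70.1, 174 and 198 CPM. It was lowest of its group in replicate 1 and passed without that library too (edgeR adjusted p = 0.0118 and 0.00295). Ephx2, a soluble epoxide hydrolase, gave 4.96, 4.65 and 16.4 CPM against 30.2, 56.8 and 47.0 CPM and behaved likewise (edgeR adjusted p = 0.0171 and 0.0108). Gpx2, a glutathione peroxidase, gave 1.65, 3.32 and 5.77 CPM against 49.1, 31.9 and 28.5 CPM. Ckb, brain creatine kinase, gave 221, 172 and 220 CPM against 926, 412 and 559 CPM, and neither Gpx2 nor Ckb passed without replicate 1 (edgeR adjusted p = 0.0573 and 0.209). In the fit of these groups alone without it, Hmga2, Gpx2 and Ckb passed (edgeR adjusted p = 0.000430, 0.000610 and 0.00777).

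Imprinted genes were followed as a list of 27, of which 19 were tested and 1 was called, lower, with and without 2i+LIF LP replicate 1 (all genes: 0.376% and 0.163% called lower). Plagl1, a maternally imprinted zinc finger factor, gave 2.20, 2.66 and 1.92 CPM in LIF LP and 68.0, 36.2 and 8.95 CPM in 2i+LIF LP. The LIF LP values were tight and the 2i+LIF LP values wide, and Plagl1 passed with replicate 1 of 2i+LIF LP (log2 fold change -4.03 ± 0.67, edgeR adjusted p = 0.00200) and without it (-3.31 ± 0.64, edgeR adjusted p = 0.0134). Meg3, Kcnq1ot1, Gnas and Impact, imprinted and well counted, were not called. Impact ranged from 143.4 to 184 CPM against 143.8 to 206 CPM. Of the DNA methylation writers and erasers none of 9 tested was called. Dnmt1, the maintenance methyltransferase, gave 105, 112 and 120 CPM in LIF LP against 498, 155.4 and 114 CPM, with the overlap made by 2i+LIF LP replicate 3. Dnmt3b, which makes new methylation and is usually low in 2i, gave 37.5, 46.5 and 52.9 CPM in LIF LP and 54.7, 87.4 and 82.8 CPM in 2i+LIF LP.

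Asns, asparagine synthetase and a target of the stress factor ATF4, gave 116, 81.0 and 95.7 CPM in LIF LP and 308, 292 and 267 CPM in 2i+LIF LP. Both groups were tight (log2 fold change -1.56 ± 0.35, edgeR adjusted p = 0.0323), and without 2i+LIF LP replicate 1 the size stayed at -1.50 ± 0.37 while the adjusted p rose to 0.0863 in edgeR. Asns was the 1 gene called of 17 tested ATF4 and amino acid response genes, whose median was -0.27 beside 0.02 over all genes, of which 0.376% were called lower. Without that library the list held no call of 17, and its median was -0.51 with 16 of 17 negative, beside 0.00 over all genes. Atf4 itself gave 707, 710 and 738 CPM against 295, 717 and 831 CPM. Named after their values were seen, Bcat1, which transfers the amino group of branched-chain amino acids, gave 142.1, 94.9 and 100 CPM against 393, 272 and 320 CPM (log2 fold change -1.55 ± 0.33, edgeR adjusted p = 0.0227), and its adjusted p without replicate 1 was 0.0905 in edgeR. Cdo1, which breaks down cysteine, gave 3.30, 1.99 and 3.37 CPM against 18.2, 21.5 and 17.3 CPM and also passed without that library (edgeR adjusted p = 0.0153 and 0.0296). Aldh1l1, an enzyme of folate metabolism, gave 2.20, 3.32 and 1.44 CPM against 20.3, 8.61 and 14.0 CPM. Lpl, lipoprotein lipase, gave 14.9, 5.98 and 19.2 CPM against 49.8, 51.7 and 47.0 CPM. Neither Aldh1l1 nor Lpl passed without replicate 1 (edgeR adjusted p = 0.0833 and 0.0573). In the fit of these groups alone without it, Asns, Bcat1 and Lpl passed (edgeR adjusted p = 0.000853, 0.00251 and 0.00692). Aldh1l1 did not pass there (edgeR adjusted p = 0.152). Glycolysis genes (20 tested) and cholesterol synthesis genes (19 tested) held no call, with medians of 0.10 and 0.25.

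None of 18 naive and none of 11 core pluripotency factors passed, which is near the background of 0.489% of all genes called. They had median log2 fold changes of 0.07 and 0.48 (-0.04 and 0.33 without 2i+LIF LP replicate 1). Esrrb, a naive factor that GSK3 inhibition is known to raise, gave 155.9, 159 and 167 CPM in LIF LP and 155.7, 180 and 132 CPM in 2i+LIF LP. Zfp42, whose locus carries the reporter, gave 110, 91.6 and 116 CPM against 114, 70.6 and 89.5 CPM. Nanog gave 250, 141.4 and 206 CPM against 112, 133 and 186 CPM, and overlapped. Tfcp2l1, a factor that joins the LIF and Wnt inputs, was the naive factor with the smallest edgeR adjusted p, at 205, 159 and 117 CPM in LIF LP and 849, 281 and 301 CPM in 2i+LIF LP. The groups did not overlap, and the log2 fold change was -1.57 ± 0.45 (edgeR adjusted p = 0.122). Its size rested in part on 2i+LIF LP replicate 1, which at 849 CPM lay far above its replicates. Tfcp2l1 passed in DESeq2 on the same genes (adjusted p = 0.0280) and not in limma-voom with sample weights (adjusted p = 0.134).

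LIF-STAT3 receptor and target genes held no call among 16 tested, with a median of 0.22 (-0.05 without 2i+LIF LP replicate 1). Both groups are labelled as grown with LIF. Lifr gave 94.2, 96.3 and 97.1 CPM in LIF LP and 57.5, 93.9 and 92.8 CPM in 2i+LIF LP. Pim3, a kinase induced by STAT3, gave 248, 185 and 212 CPM against 10.5, 230 and 302 CPM, and replicate 1 lay far below all the others. Bmp4, a growth factor that works with LIF in self-renewal, was also far the lowest in replicate 1 and lay above LIF LP in replicates 2 and 3, at 351, 547 and 499 CPM against 21.7, 849 and 699 CPM. Of 17 MEK-ERK target and feedback genes tested none was called, and their median of 0.08 turned to -0.18 without that library. Spred1, a feedback inhibitor of the pathway, gave 79.9, 79.7 and 79.4 CPM in LIF LP and 0, 57.3 and 50.9 CPM in 2i+LIF LP (edgeR adjusted p = 0.487). Of 14 Nodal, activin and BMP genes Lefty1 alone was called (all genes: 0.113% called higher), and none was called without 2i+LIF LP replicate 1. Inhbb, an activin subunit, gave 52.3, 40.5 and 47.6 CPM against 14.7, 12.1 and 10.6 CPM without passing in edgeR (log2 fold change 1.91 ± 0.60, adjusted p = 0.165). Inhbb passed in DESeq2 (adjusted p = 0.0369) and in limma-voom with sample weights (adjusted p = 0.0133). None of 3 FGF ligands and receptors tested was called (median 0.40).

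Several genes were set apart by 2i+LIF LP replicate 1 alone. Stra8, a germline gene of meiotic entry, gave 46.8, 41.2 and 30.3 CPM in LIF LP and 196, 6.89 and 1.12 CPM in 2i+LIF LP. Over all libraries it did not pass (log2 fold change -0.77 ± 0.84, edgeR adjusted p = 0.781). Without replicate 1 it passed as higher in LIF LP (3.22 ± 0.67, edgeR adjusted p = 0.0296). The other 2 genes that passed only without it were Cdx1 and Sh2d4b, an adaptor protein with an SH2 domain that was named after its values were seen. Sh2d4b gave 0, 1.99 and 0 CPM in LIF LP against 2.10, 10.3 and 17.3 CPM (edgeR adjusted p = 0.0616 with that library and 0.0224 without it). Trp53, the gene of p53, gave 258 CPM in that library against 64.6 and 38.6 CPM in its replicates and 30.3 to 52.5 CPM in LIF LP. No p53 target gene was called among 16 tested (median 0.40), no germline gene among 15 (median -0.03) and no cell cycle regulator among 18 (median 0.35). Without 2i+LIF LP replicate 1 these lists held no call either, and their medians were 0.53, -0.22 and 0.04 in the same order. Counting each gene once, 7 of 245 tested genes of the 25 lists were called (2.86%, beside 0.489% of all genes), and 4 of 253 without that library (1.58%, beside 0.208%). The lists were chosen with results of these data known, so nothing is read from these shares.

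**Figure D4:**
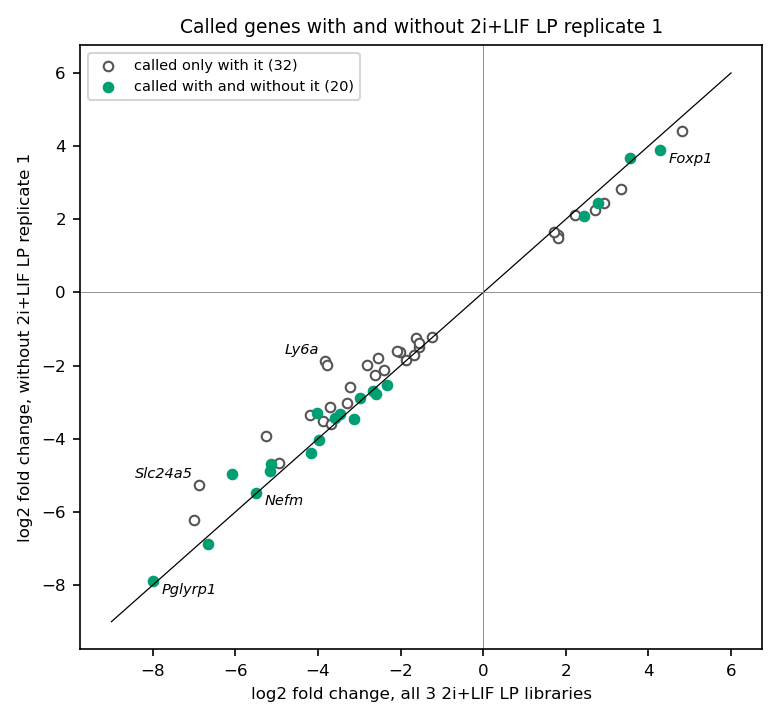
Log2 fold change of LIF LP over 2i+LIF LP for the 52 called genes, with all 3 2i+LIF LP libraries (horizontal) and without replicate 1 (vertical), beside the line of equality. The 20 genes called both ways (green) lie close to the line for the most part, with Sp5 moving from -6.07 to -4.97, and Ly6a moves most among those labelled, from -3.82 to -1.88.

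Leaving out each of the 6 libraries in turn gave between 13 and 130 called genes, and 13 of the 52 were called in all 6 of these fits. They were Foxp1, Polr3gl and Col18a1 among the rises and Pglyrp1, Nefm, Nefl, Trpm1, Krtdap, Gpnmb, Plagl1, Fetub, Rragd and 1700097N02Rik among the falls. Fetub and 1700097N02Rik were named after their values were seen. Fetub, a protease inhibitor related to fetuin, gave 7.71, 0.664 and 3.85 CPM in LIF LP and 55.4, 45.6 and 40.3 CPM in 2i+LIF LP. The noncoding RNA 1700097N02Rik, which overlaps Dnah8 and Glo1, gave 17.1, 9.30 and 21.6 CPM against 70.8, 113 and 111 CPM. A fit of these groups alone, with 4 residual degrees of freedom in place of 14, called 3 genes, all lower. The same fit without 2i+LIF LP replicate 1 called 86 higher and 68 lower genes, and 39 of the 46 genes of the 52 that it tested were among them.

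**Figure D5:**
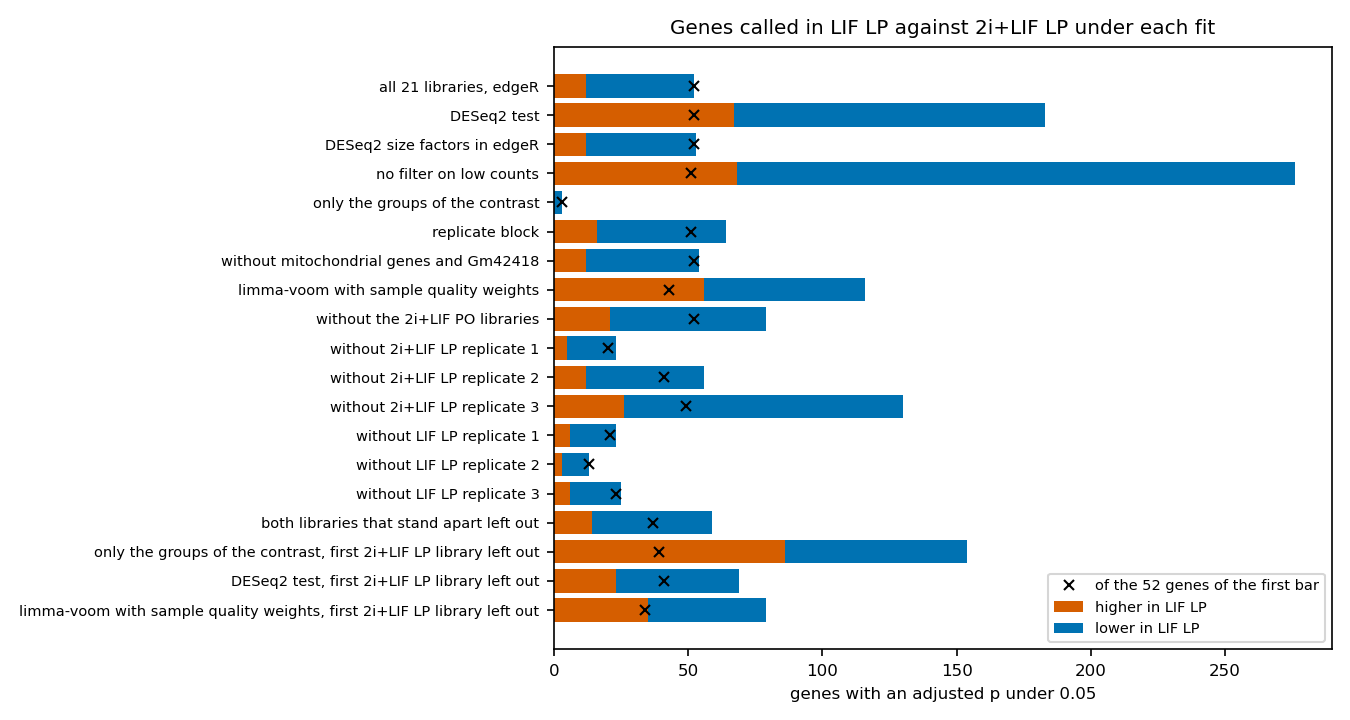
Number of genes with an adjusted p under 0.05 (horizontal axis) under each fit, higher in LIF LP (orange) and lower (blue), with a cross at the number shared with the 52 genes of the first bar. The counts run from 3 with the groups of the contrast alone to 276 with no filter on low counts.

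The same media were also compared at HP, in 6 other libraries, and the difference between media was tested for a change between LP and HP. For 16 of 10643 genes (0.15%) the LIF minus 2i+LIF difference at LP was unlike that at HP in edgeR's quasi-likelihood test, 13 with the lower value at LP and 3 with the higher. Without 2i+LIF LP replicate 1 it was 21 of 11058 genes (0.19%), 18 and 3. Krtdap was at 0.481 ± 0.833 CPM in LIF LP and 21.8 ± 10.7 CPM in 2i+LIF LP, but at HP it was at 295 ± 88.1 CPM in LIF and 32.5 ± 14.2 CPM in 2i+LIF (SD, n = 3 each). Its medium effect thus had opposite signs (interaction on the log2 scale -8.34 ± 0.88, edgeR adjusted p = 6.15e-06). Of these groups, Trpm1 was low in LIF LP alone, at 2.17 ± 1.97 CPM against 81.4 ± 24.9 CPM in 2i+LIF LP, 70.4 ± 15.1 CPM in LIF and 81.1 ± 20.0 CPM in 2i+LIF at HP (interaction -4.94 ± 0.63, edgeR adjusted p = 0.000122). Tdgf1, the Nodal co-receptor Cripto, hardly differed between media at LP, at 506 ± 71.5 CPM in LIF and 391 ± 44.3 CPM in 2i+LIF. At HP it stood at 549 ± 106 CPM and 36.5 ± 27.7 CPM (interaction -3.53 ± 0.60, edgeR adjusted p = 0.00682). Foxp1, in contrast to its LIF LP level, was at 12.2 ± 5.82 CPM with LIF and 7.66 ± 5.56 CPM with 2i+LIF at HP. Its interaction did not pass (3.60 ± 1.01 on the log2 scale, edgeR adjusted p = 0.140).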

How the data were processed

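mRNA was sequenced from E14Tg2a cells in 21 libraries, 7 groups of 3, of which 6 were compared here. The authors deposited raw counts per gene for 31053 Ensembl identifiers and 5 closing entries per library. Per the submitters' processing notes, bcl2fastq, STAR 2.6.0a, HTSeq and mm10 were used; the annotation and strand setting are not given in the sources used here. Closing entries (40.4 to 48.0% of entries in the 6 libraries) were left out. GENCODE M21 gave symbols for 31011 identifiers and not for 42.

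Counts were filtered (filterByExpr), TMM-scaled and tested over all 21 libraries with edgeR 4.0.16 in R 4.3.3 (quasi-likelihood, 1 coefficient per group, 14 residual degrees of freedom, two-sided, Benjamini-Hochberg, threshold 0.05). An SE is the log2 fold change divided by the square root of F. DESeq2 1.42.0 and limma 3.58.1 (voom with sample weights), other size factors, filters and sets of libraries were alternatives.

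Named were called genes with at least 5 CPM and no overlap (12 largest rises, 16 largest falls), list genes, 5 each way without 2i+LIF LP replicate 1, and 4 by the interaction. Others are marked. Comparison, lists and rules were chosen with earlier results of these data known. Lists carry no test of their own.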

Additional observations from a re-analysis of the deposited data

Results flagged for a closer look

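For 8 of the named or listed genes the LIF minus 2i+LIF difference at LP was unlike that at HP by edgeR's interaction test, with n = 3 in each group. The interaction is the log2 difference at LP less that at HP. It was negative for Krtdap (-8.34, edgeR adjusted p = 6.15e-06), Snx20 (-5.84, edgeR adjusted p = 0.000565), Trpm1 (-4.94, edgeR adjusted p = 0.000122) and Gm31659 (-4.30, edgeR adjusted p = 0.0378). It was also negative for Tdgf1 (-3.53, edgeR adjusted p = 0.00682) and for Ccng1, a cyclin that p53 induces (-3.15, edgeR adjusted p = 0.00707).

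Snx20, a sorting nexin, stood at 16.4 ± 7.09 CPM in LIF LP and 34.5 ± 6.84 CPM in 2i+LIF LP, while at HP it stood at 23.2 ± 13.7 CPM in LIF and 0.838 ± 0.330 CPM in 2i+LIF (SD). Ccng1 stood at 129 ± 25.5 and 83.6 ± 21.1 CPM at LP, and at 163 ± 66.3 and 12.0 ± 3.16 CPM at HP, LIF first. Gm31659, a noncoding RNA, was low in LIF LP alone of these groups, at 1.11 ± 0.485 CPM, against 18.4 ± 6.41 CPM in 2i+LIF LP and 84.2 ± 32.4 and 67.2 ± 19.2 CPM in LIF and 2i+LIF at HP.

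The interaction was positive for Uhrf2, which binds methylated and hydroxymethylated DNA (3.67, edgeR adjusted p = 0.00682), and for the imprinted Peg3 (3.30, edgeR adjusted p = 0.0135). Uhrf2 stood at 23.5 ± 4.70 CPM in LIF LP, 7.89 ± 2.92 in 2i+LIF LP, 17.5 ± 3.14 in LIF HP and 75.3 ± 16.5 in 2i+LIF HP. Peg3 hardly differed at LP, at 41.5 ± 8.16 and 46.3 ± 4.09 CPM, and at HP stood at 12.4 ± 7.67 CPM in LIF and 140.4 ± 73.3 CPM in 2i+LIF.

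All 8 kept their sign and passed in edgeR without 2i+LIF LP replicate 1. The interaction was then -7.86 for Krtdap (edgeR adjusted p = 6.69e-06), -5.64 for Snx20 (0.00108), -4.63 for Trpm1 (0.000184) and -4.32 for Gm31659 (0.0368). It was -3.40 for Tdgf1 (edgeR adjusted p = 0.00934), -3.13 for Ccng1 (0.00896), 3.54 for Uhrf2 (0.00941) and 3.31 for Peg3 (0.0179).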

How the results depend on the processing

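The count of called genes moved with the fit. Against 52 genes in edgeR (12 higher, 40 lower in LIF LP), DESeq2 called 67 higher and 116 lower, no filter on low counts 68 and 208, limma-voom with sample weights 56 and 60, edgeR without the 2i+LIF PO libraries 21 and 58, and edgeR on these groups alone 0 and 3 (785 genes at an unadjusted p under 0.05). Leaving out 1 library gave 3 to 26 higher and 10 to 104 lower. The smallest total, 13, was without LIF LP replicate 2 and the largest, 130, without 2i+LIF LP replicate 3, while leaving out LIF LP replicates 1 and 3 gave 23 and 25. DESeq2 size factors gave 53 in all, and removal of mitochondrial genes and Gm42418 gave 54. Without 2i+LIF LP replicate 1, edgeR called 5 higher and 18 lower, and 14 and 45 where 2i+LIF PO replicate 1 was left out too. Chosen after seeing the data, DESeq2 without that library called 23 and 46, limma-voom 35 and 44, and edgeR on these groups alone 86 and 68. Listed genes called went from 7 to 12 in DESeq2, 16 with no filter, 0 with these groups alone, 12 with these groups alone and without 2i+LIF LP replicate 1, and 2 to 7 leaving out 1 library. Interaction calls went from 3 with the higher and 13 with the lower value at LP to 42 and 85 in DESeq2, 45 and 111 with no filter, 1 and 8 with the groups of the contrast alone, 47 and 113 in limma-voom, 9 and 25 without 2i+LIF PO, 45 and 122 without both libraries that stood apart, and 1 to 17 and 5 to 38 leaving out 1 library.

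For the 52 genes, 599 of 819 values under alternatives kept their direction and call, 220 lost the call and 0 changed sign. The last count was close to fixed beforehand, because the CPM of these genes did not overlap between the groups. Stra8, not called (-0.77), turned to 3.01 in limma-voom, 3.20 without both libraries that stood apart and 3.21 with these groups alone and without 2i+LIF LP replicate 1, and ranged from -1.39 to 3.22 leaving out 1 library. The Gm42418 share difference of -7.54 percentage points ranged from -11.9 to 0.541 leaving out 1 library. Deviations from the group means correlated at 0.155, 0.0193 and -0.0152 between same-numbered LIF LP and 2i+LIF LP libraries. Between unlike-numbered ones the correlations ran from -0.205 to 0.193. Whether libraries of the same number shared a batch across the series was not tested. A replicate block in the fit gave 16 higher and 48 lower genes, with 51 of these 64 among the 52. It also gave 4 and 16 interaction calls and 6 listed genes. The causes of these moves were not tested. At 1298051 to 2165518 counts per library, a gene near 2 CPM rests on few reads.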
